A study of Arabidopsis thaliana with 18 samples.

Results

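The comparison concerned mRNA abundance in total RNA (TC) of rpl24b seedlings against wild-type (WT) seedlings, before any separation of RNA by ribosome loading. Its members were the 3 rpl24b arrays and the 3 WT arrays that the labels give as total RNA, 6 of the 18 arrays of the series, with all 22746 probe sets of the Affymetrix ATH1 array, which carries short oligonucleotide probes for Arabidopsis mRNAs. The other 12 arrays hold polysomal RNA (PL, mRNA on several ribosomes) and nonpolysomal RNA (NP) of the same plant samples. The tested plants carried the rpl24b allele stv1-1 in the Wassilewskija (Ws) strain. By the methods this allele removes RPL24B together with several neighbouring genes, and a transgene for the small MYB protein CAPRICE (CPC) sits at the locus. The WT plants have no strain in the labels, while the methods place wild type in Columbia-0 and also speak of the corresponding wild type, so that a difference of strain and the effect of the mutation cannot be told apart below. Both groups were aerial parts of seedlings aged 10 to 12 days, kept at 22 °C under 16 h of light and 8 h of dark on medium with 1% sucrose, and taken 6 h after lights on. Each of the 3 replicates was raised at another time, the mutant beside WT, and the number of arrays limits the precision.

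RPL24B encodes an L24 protein of the large (60S) subunit of the cytosolic ribosome, the particle of RNA and ribosomal proteins (r-proteins) that reads mRNAs. Arabidopsis keeps most r-proteins as small families of near-identical genes, here called paralogs A, B, C and so on. Before a ribosome can work, its rRNA is cut, chemically modified and packed with r-proteins in the nucleolus by ribosome biogenesis factors. CPC is known as a repressor of epidermal cell fate that competes with activating MYB proteins such as MYB23, upstream of the homeodomain gene GL2.

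Signals were on the log2 scale, where a difference of 1 is 2-fold. The array medians lay between 5.36 and 5.4 in rpl24b and between 5.34 and 5.41 in WT, and the lower quartiles between 3.47 and 3.55 in rpl24b and between 3.41 and 3.46 in WT. Arrays of the same genotype correlated with a mean Pearson r of 0.991 to 0.993 in rpl24b and 0.993 to 0.994 in WT, and arrays of different genotype with r of 0.972 to 0.979. The files hold no detection calls, so a signal under the lower quartile of an array was not told from background here. Of 26 marker genes of leaf tissue, epidermis, guard cells, phloem, xylem, root, seed and flower, none was called, and 3 had a probe set named here. RCA, the Rubisco activase of green tissue, lay between 13.89 and 13.99 in rpl24b and between 13.91 and 13.94 in WT. The root hair expansin EXPA7 lay between 3.66 and 4.12 in rpl24b and between 3.86 and 3.92 in WT. CRA1, a seed storage protein, ran from 3.72 to 7.79 in rpl24b and from 3.77 to 6.41 in WT, so that the genotypes overlapped (adjusted p = 0.688, limma).

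A probe set was called when its limma p adjusted over all probe sets (Benjamini-Hochberg) was under 0.05 and the change at least 2-fold. By this rule 661 probe sets differed, 2.91% of those tested, with 340 higher (1.49%) and 321 lower (1.41%) in rpl24b. In all 661 the 3 arrays of each genotype did not overlap, against 34.2% of all probe sets without overlap. By adjusted p alone 3711 probe sets (16.3%) differed, 1911 higher (8.4%) and 1800 lower (7.91%). The gene lists below were chosen with earlier results of these data known, so the shares of their members called are descriptions. Of changes of at least 3 on the log2 scale 35 were falls and 13 were rises. In 9 falls the rpl24b signal was under the lower quartile of all 3 arrays while the WT signal was above the median of all 3, and 4 rises had the reverse. The array was designed on 1 reference strain, and less mRNA and poorer hybridisation of a differing sequence cannot be told apart here. In these bulk samples fewer cells of a type and less RNA per cell cannot be told apart either.

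**Figure D1:**
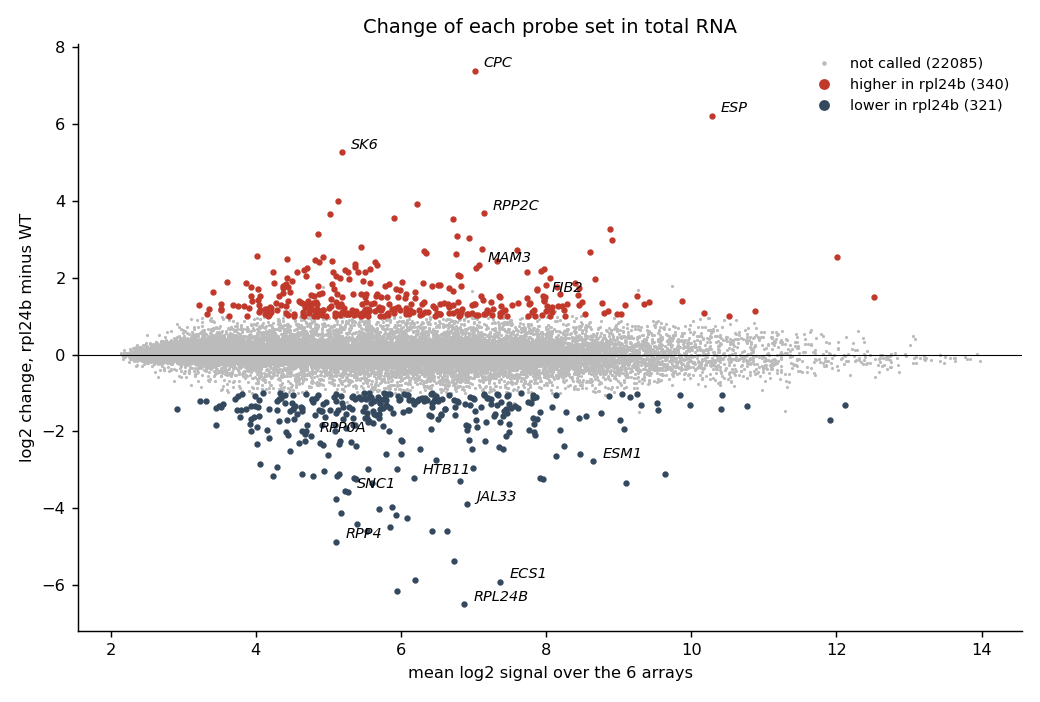
Log2 change in total RNA (rpl24b minus WT, y axis) against the mean log2 signal over the 6 arrays (x axis) for all 22746 probe sets, with the 340 called higher in red, the 321 called lower in dark blue and the others in grey. CPC and ESP stand at the top and RPL24B at the bottom.

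The RPL24B signal was 3.79, 3.63 and 3.44 in the rpl24b arrays, against 9.98, 10.11 and 10.27 in the WT arrays. It fell by 6.50 ± 0.12 on the log2 scale (SE, n = 3 each, limma, adjusted p = 2.88e-08), and its mutant signals were close to the lower quartile of the arrays. The paralog RPL24A had signals of 10.24, 10.30 and 10.60 in rpl24b, against 9.84, 9.76 and 10.07 in WT. Its rise was 0.49 ± 0.13 (SE, adjusted p = 0.0329), short of 2-fold. RPL24C, a divergent member of the family, had 8.06, 8.32 and 8.67 in rpl24b, against 7.46, 7.12 and 7.44 in WT, a rise of 1.01 ± 0.16 (SE, adjusted p = 0.00458). For both remaining paralogs each mutant array was thus above each WT array. The adjusted p of RPL24A no longer passed 0.05 with all 18 arrays in the fit, nor without rpl24b replicate 2 or 3 or WT replicate 1 or 2. RPL24C lay at the 2-fold limit, with a rise of 1.00, just under it, on median-centred arrays, 0.85 without rpl24b replicate 3 and 0.90 without WT replicate 2.

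CPC gave 10.86, 10.91 and 10.38 in rpl24b, against 3.34, 3.21 and 3.41 in WT, a rise of 7.40 ± 0.15 (SE, adjusted p = 2.88e-08) and the largest change of all probe sets. Of the 18 genes on the list of epidermal patterning, CPC rose and both MYB23 and GL2 fell past the test, and the other 15 were not called. This is 16.7% of the list, against 2.91% of all probe sets called. The share counts CPC itself, which the mutant carries as a transgene, so that its call was set by the genotype. MYB23, an activator of trichome fate, had 2.47, 2.56 and 2.58 in rpl24b, against 4.57, 4.19 and 4.34 in WT. It fell by 1.83 ± 0.12 (SE, adjusted p = 2.81e-05). GL2, which acts in trichomes and in root epidermis, had 3.25, 3.04 and 3.44 in rpl24b, against 5.12, 4.89 and 4.55 in WT, and fell by 1.61 ± 0.16 (SE, adjusted p = 0.000392). Their mutant signals lay at or below the lower quartile of the arrays.

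Next to RPL24B on chromosome 3 stood genes with large changes in either direction, named here after their values were seen. SRPK4, a kinase of splicing proteins and the next gene in RefSeq order, had 4.44, 4.62 and 4.43 in rpl24b, against 7.2, 7.1 and 6.95 in WT, and fell by 2.59 ± 0.10 (SE, adjusted p = 2.26e-06). SK6, an SKP1-like subunit of ubiquitin ligases a few genes further, had 7.71, 8.03 and 7.75 in rpl24b, against 2.81, 2.35 and 2.50 in WT, and rose by 5.27 ± 0.14 (SE, adjusted p = 1.98e-07). Between them AT3G53040 had a change of -0.23, with adjusted p = 0.446 and signals under 3.6 in every array, so a loss of its mRNA could not have been seen.

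**Figure D2:**
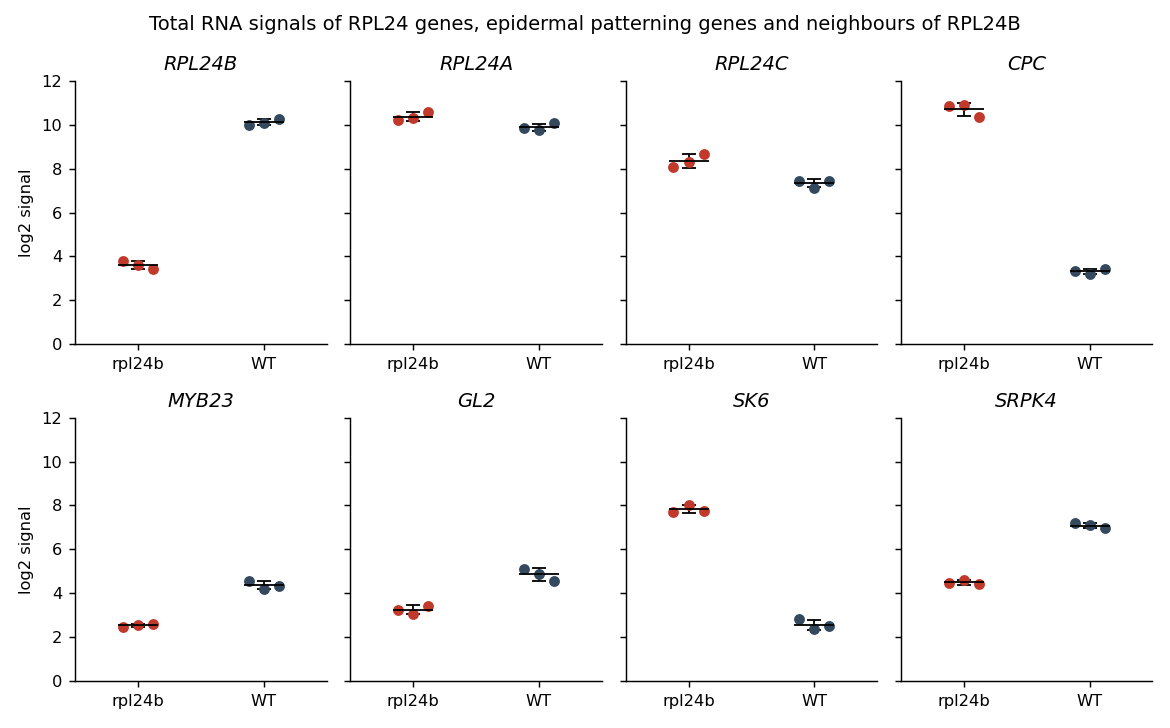
Log2 signals in total RNA (y axis) of the 3 rpl24b arrays (red, left) and the 3 WT arrays (dark blue, right) for 8 genes, with the mean (bar) and SD (whisker). The arrays of the genotypes do not overlap in any panel, and RPL24B, SRPK4, MYB23 and GL2 are lower while CPC, SK6, RPL24A and RPL24C are higher in rpl24b.

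Most transcripts for cytosolic r-proteins were higher in rpl24b, by less than 2-fold. Of 216 probe sets for cytosolic r-proteins, 198 had a positive change, and 122 rose and 4 fell with adjusted p under 0.05, which is 56.5% upward and 1.85% downward against 8.4% and 7.91% of all probe sets. Their median change was 0.43, beside 0.03 over all probe sets, and 0.30, 0.41 and 0.58 between same-numbered samples of replicates 1, 2 and 3. In 167 of them every rpl24b array was above every WT array, against 18.5% of all probe sets. Of the 189 members in the brighter part of the array, with a mean signal not under the median, 119 (63%) rose, against 11% of all probe sets that bright. The number that rose was smaller whenever an array was left out, namely 71 without rpl24b replicate 3, 80 without WT replicate 1, 76 without WT replicate 3 and 45 without WT replicate 2, while the median change stayed between 0.33 and 0.48 over the 6 such fits.

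The rise was spread over the ribosome. Of 114 probe sets for 60S proteins 68 rose and 2 fell, with a median of 0.46, and of 86 for 40S proteins 45 rose and 1 fell, with a median of 0.38. Of 80 r-protein families 77 had a mean change above 0, 71 had at least 1 probe set that rose, and in 24 every probe set rose. The families with a mean below 0 were L24, with the lost RPL24B, P0 and L3. In L3, which lies near the peptidyl transferase centre, RPL3B had 5.42, 5.59 and 5.68 in rpl24b, against 6.68, 6.25 and 6.52 in WT. It fell by 0.92 ± 0.13 (SE, adjusted p = 0.0024), while the change of RPL3A was -0.19 (adjusted p = 0.352). The highest family means were 1.53 in S27a, which has 1 probe set, and 1.09 in P2, where 5 probe sets ranged from 0.25 to 3.68.

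A total of 11 r-protein probe sets were called, 9 upward and 2 downward, which is 5.09% of the list, against 2.91% of all probe sets. The ribosomal stalk, which recruits elongation factors to the 60S subunit, held the largest of these after RPL24B, in opposite directions. RPP2C, a P2 protein of the stalk, had 9.03, 8.93 and 8.99 in rpl24b, against 4.94, 5.38 and 5.58 in WT, a rise of 3.68 ± 0.15 (SE, adjusted p = 2.43e-06). RPP0A, a P0 protein that anchors the stalk, had 3.60, 3.58 and 3.92 in rpl24b, against 5.98, 5.78 and 5.69 in WT, a fall of 2.12 ± 0.13 (SE, adjusted p = 2.13e-05). The other 14 probe sets of the P-proteins had a narrower range, and 8 of them rose with adjusted p under 0.05.

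The remaining called r-proteins rose by 1.01 to 1.53. RPS27aA, made as a fusion to ubiquitin, had 5.43, 5.31 and 5.97 in rpl24b, against 4.0, 4.04 and 4.07 in WT, a rise of 1.53 ± 0.16 (SE, adjusted p = 0.000547). RPS9C of the 40S subunit had 7.84, 7.75 and 8.19 in rpl24b, against 6.57, 6.48 and 6.63 in WT, a rise of 1.37 ± 0.13 (SE, adjusted p = 0.000261). RPL27A rose by 1.2, RPL29B by 1.06, RPL11B by 1.06, RPL30A by 1.03, RPS8B by 1.02 and RPL24C by 1.01. These paralogs were picked by the 2-fold limit, so smaller changes in other members of their families follow in part from that choice. In L11 the range was 0.11 to 1.06. RPL29B, RPL11B, RPS8B, RPL30A and RPL24C fell short of 2-fold when rpl24b replicate 3 or a WT array was left out, with rises between 0.85 and 0.97. Paralogs are close in sequence, and 18 of the 216 probe sets match several genes, so a change can be shared between copies.

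Ribosome biogenesis factors had a larger median than the r-proteins. Of 42 listed genes 9 were called, all upward (21.4%, against 2.91% of probe sets called in either direction). The platform list names 18 of the listed probe sets, and FIB2, NOP56, NAP57 and AT2G40360 are not among them. Over these 18 the median change was 0.80, with 0.59, 0.79 and 0.98 between same-numbered samples. Of the 18, 12 rose and none fell with adjusted p under 0.05. FIB2 encodes fibrillarin, the methyltransferase of box C/D snoRNPs that modify rRNA. It had 8.32, 8.41 and 9.45 in rpl24b, against 7.09, 7.0 and 7.49 in WT, a rise of 1.53 ± 0.28 (SE, adjusted p = 0.00754). Its particle partner NOP56 had 8.5, 8.61 and 9.39 in rpl24b, against 7.52, 7.61 and 7.85 in WT, a rise of 1.18 ± 0.22 (SE, adjusted p = 0.00844). A second NOP56-like gene, AT3G12860, rose by 1.16, and the NOP58 probe sets of AT3G05060 and of AT5G27120 with AT5G27140 rose by 1.02 and 1.1. Both were under 2-fold without rpl24b replicate 3 (0.75 and 0.84) and without WT replicate 2, and that of AT3G05060 also without WT replicate 1.

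NAP57, the pseudouridine synthase of H/ACA snoRNPs, had 8.21, 8.54 and 9.13 in rpl24b, against 7.15, 7.25 and 7.89 in WT, a rise of 1.2 ± 0.26 (SE, adjusted p = 0.0144). The factors of 60S assembly EBP2 and WDR12 rose by 1.1 and 1.03. AT2G40360, listed as BOP1 and annotated here as a transducin/WD40 repeat protein, rose by 1.1, and 0.86 without rpl24b replicate 3. It is counted among the 9 by its locus, since the symbol BOP1 now names another gene. In FIB2, NOP56 and NAP57 replicate 3 had the highest signal of either genotype, and no groups overlapped. The adjusted p of NAP57 was 0.0541 without WT replicate 1 and 0.0579 without WT replicate 2, and AT3G12860 rose by 0.95 without WT replicate 1. Without rpl24b replicate 3 the rises of NAP57, NOP56 and AT3G12860 were 0.95, 0.90 and 0.86, and the list's median was 0.60. Without WT replicate 2 the number of listed probe sets that rose was 6. Of 15 elongation factor genes none was called, beside 2.91% of all probe sets. The largest change named here was in AT5G19510, an elongation factor 1B subunit, with 0.40 ± 0.11 (SE, adjusted p = 0.0358).

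Nuclear-encoded r-proteins of mitochondria and of plastids had medians of opposite sign. The 50 probe sets of nuclear-encoded mitochondrial r-proteins had a median of 0.28, with 10 up and 1 down by adjusted p. This is 20% upward and 2% downward, against 8.4% and 7.91% of all probe sets. HLL, a mitochondrial L14 protein known from ovule development, had 6.80, 6.89 and 7.11 in rpl24b, against 5.26, 5.51 and 5.6 in WT, a rise of 1.48 ± 0.13 (SE, adjusted p = 0.000161). The 50 probe sets of nuclear-encoded plastid r-proteins had a median of -0.13, with 3 up and 9 down. This is 6% upward and 18% downward, against 8.4% and 7.91% of all probe sets. The gene for plastid L27, RPL27 (AT5G40950), had 7.93, 8.10 and 8.24 in rpl24b, against 11.02, 11.28 and 11.29 in WT. It fell by 3.1 ± 0.12 (SE, adjusted p = 1.79e-06). Plastid L9 (RPL9, AT3G44890) had 8.13, 7.92 and 8.27 in rpl24b, against 9.81, 10.30 and 10.00 in WT, and fell by 1.93 ± 0.14 (SE, adjusted p = 8.32e-05). Among r-proteins that the organelles encode themselves, 22 probe sets of the plastid had a median of 0.34. Between same-numbered samples of replicates 1, 2 and 3 this median was 0.63, 0.04 and 0.35, so it was uneven. Of these 22, 1 rose by adjusted p (4.55%, against 8.4% of all probe sets) and none fell. The 1 probe set of the mitochondrion had a change of -0.47. By the paper these arrays favour polyadenylated mRNAs, and in organelles polyadenylation comes before degradation. For organelle-encoded genes, a change in mRNA level and one in its polyadenylated part cannot be told apart here.

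**Figure D3:**
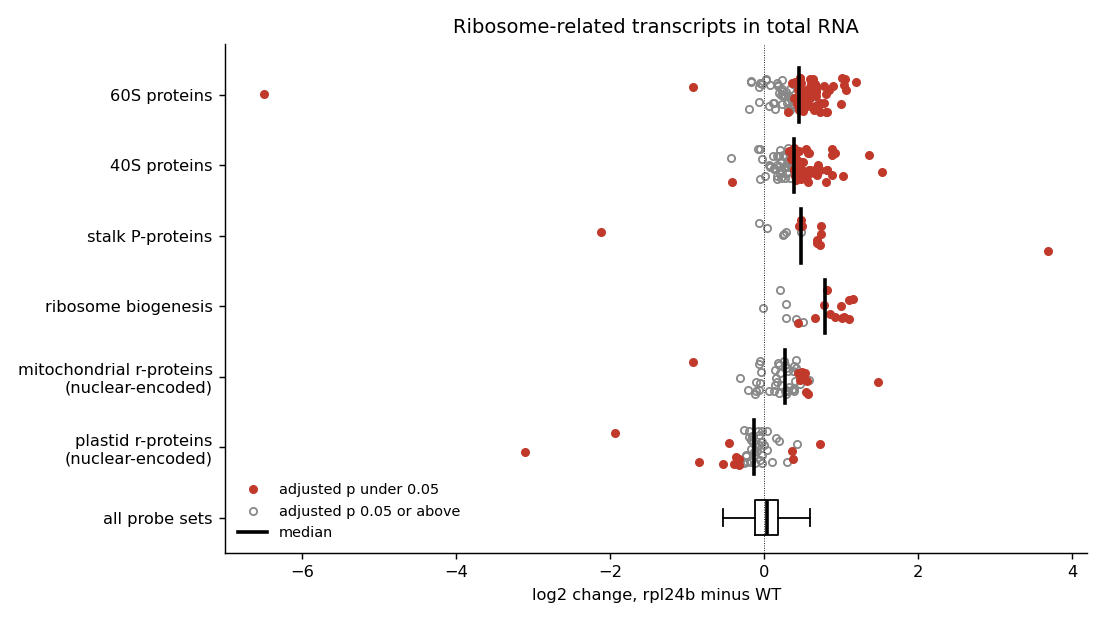
Log2 change in total RNA (rpl24b minus WT, x axis) of the probe sets in 6 ribosome-related lists, each point a probe set, filled where adjusted p was under 0.05, with the list's median as a black line and, for all probe sets, a box for the quartiles with whiskers at the 5th and 95th percentile. The medians of the cytosolic 60S, 40S and biogenesis lists are 0.46, 0.38 and 0.80, and that of nuclear-encoded plastid r-proteins is -0.13.

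None of the 45 nuclear photosynthesis genes and none of the 21 genes of chlorophyll synthesis was called. With 2.91% of all probe sets called, few calls would fall in lists of this size. Of these lists 9 and 6 probe sets have a name here, so changes short of a call were not seen in most members. Among those named here, LHCB4.2 of the photosystem II antenna had 12.11, 12.40 and 12.24 in rpl24b, against 12.85, 12.84 and 12.77 in WT, a fall of 0.57 ± 0.10 (SE, adjusted p = 0.00759). PORB, the light-dependent protochlorophyllide reductase, rose by 0.58 ± 0.13 (SE, adjusted p = 0.0199, above 0.05 without rpl24b replicate 1 or 2 or WT replicate 2). CHLM, a methyltransferase of the same pathway, fell by 0.49 ± 0.10 (SE, adjusted p = 0.0125). Over 76 probe sets for plastid-encoded genes the median change was 0.05. Of the 76, 1 (1.32%) was called upward and 3 (3.95%) downward, against 1.49% and 1.41% of all probe sets. The limit given above for polyadenylated mRNAs of organelles holds for these probe sets too. The probe set of plastid rps4 had 13.23, 13.31 and 13.29 in rpl24b, against 9.47, 11.45 and 11.25 in WT. Its rise of 2.55 ± 0.43 (SE, adjusted p = 0.00568) came with WT signals that spread by almost 2, and with trend and robust variance its adjusted p was 0.0602. The signals of psbK, psbM and psbI, which encode small photosystem II subunits, fell by 1.75, 1.70 and 1.49. The call of psbK ended with trend and robust variance (adjusted p = 0.0896) and without rpl24b replicate 2, WT replicate 2 or WT replicate 3, and that of psbI without WT replicate 2 (adjusted p = 0.0511). psbM had 10.48, 11.24 and 11.45 in rpl24b, against 12.22, 13.09 and 12.97 in WT (adjusted p = 0.00518).

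Immune receptors of the NLR type, intracellular proteins with a nucleotide-binding domain and leucine-rich repeats that sense pathogen effectors, were among the largest falls. Of 18 listed receptor genes 5 were called, all lower in rpl24b (27.8%, against 1.41% of probe sets called lower). The list was chosen with earlier results of these data known, so this share is a description. RPP4, which recognises a downy mildew, had 2.57, 2.85 and 2.59 in rpl24b, against 7.43, 7.71 and 7.5 in WT, a fall of 4.88 ± 0.12 (SE, adjusted p = 9.71e-08). SNC1, a receptor gene of the same cluster, had 3.80, 3.25 and 3.4 in rpl24b, against 6.67, 7.55 and 6.94 in WT, a fall of 3.57 ± 0.22 (SE, adjusted p = 2.81e-05). WRR4, a white rust resistance gene, had 3.60, 3.69 and 3.34 in rpl24b, against 6.82, 6.38 and 6.93 in WT, and fell by 3.16 ± 0.16 (SE, adjusted p = 7.27e-06). The groups lay far apart in these genes, with all mutant signals under 4.

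RPP13 kept a higher mutant signal, with 5.07, 5.0 and 4.61 in rpl24b, against 7.54, 7.13 and 6.63 in WT, a fall of 2.21 ± 0.22 (SE, adjusted p = 0.00039). AT4G19500, at the RPP2 locus, had 2.96, 3.67 and 3.06 in rpl24b, against 7.81, 7.83 and 7.85 in WT, and fell by 4.60 ± 0.17 (SE, adjusted p = 1.38e-06). A search of the annotations of all called probe sets, made after the values were seen, found 19 for NLR proteins, of which 18 were lower and 1 was higher. SNC1, annotated by its name alone, was not among them, nor was AT4G19530, given below. How many NLR probe sets the array holds was not counted, so this count is no rate. The exception, AT5G47250, had 6.94, 6.72 and 6.88 in rpl24b, against 4.07, 4.73 and 4.52 in WT, a rise of 2.40 ± 0.16 (SE, adjusted p = 4.52e-05).

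Several of these falls came from neighbouring genes. Beside RPP4 and SNC1 on chromosome 4 stand AT4G16870, a copia-like retrotransposon, and AT4G16880, a leucine-rich repeat gene. AT4G16870 had 3.92, 3.61 and 4.0 in rpl24b, against 7.97, 7.92 and 8.15 in WT, and fell by 4.17 ± 0.12 (SE, adjusted p = 3.08e-07). AT4G16880 fell by 2.17 ± 0.18 (SE, adjusted p = 0.000155), so that all 4 genes of the stretch were lower. Next to AT4G19500 the receptor genes AT4G19510 and AT4G19530 fell by 1.46 and 1.57. No gene of salicylic acid defence, 24 in number, was called, beside 2.91% of all probe sets. Of the 24 genes SAG101, a partner of EDS1 in receptor signalling, had a change of 0.82 ± 0.12 (SE, adjusted p = 0.00231) and WRKY53 one of 0.51 (adjusted p = 0.0428).

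**Figure D4:**
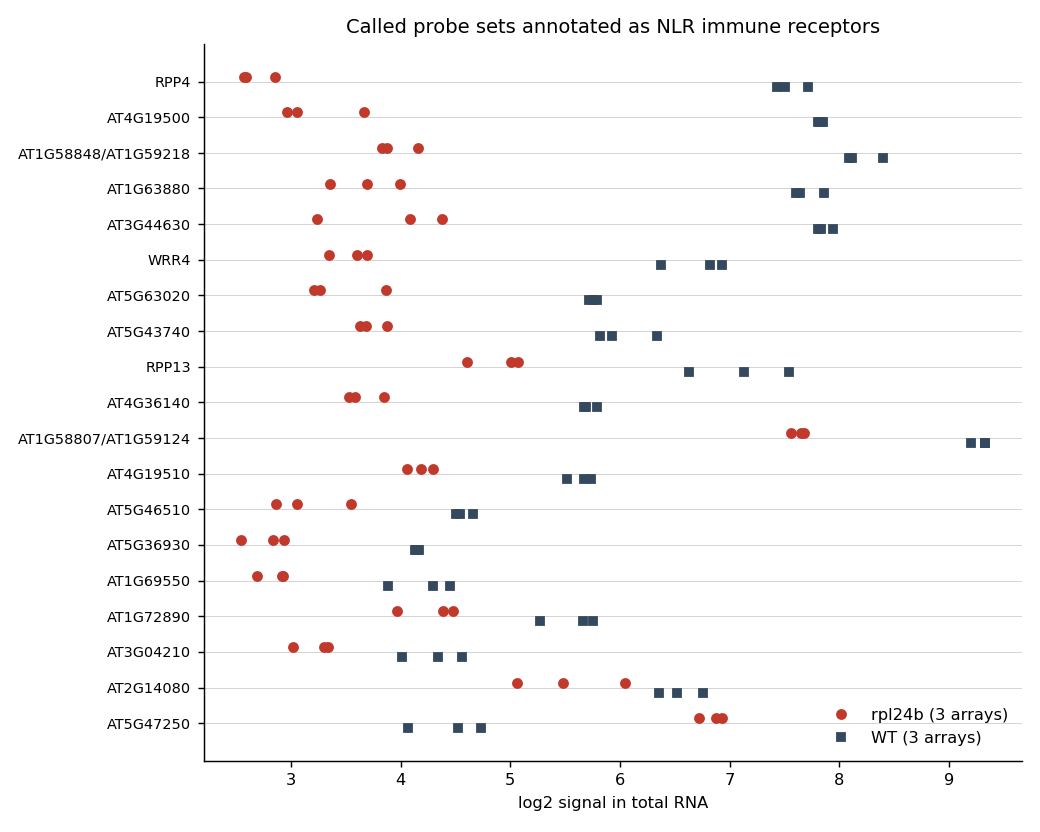
Log2 signals in total RNA (x axis) of the 19 called probe sets annotated as NLR immune receptors (rows, ordered by change), with the 3 rpl24b arrays in red and the 3 WT arrays in dark blue below them. In 18 rows the rpl24b points lie left of the WT points, and in AT5G47250 they lie to the right.

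In the metabolism of glucosinolates, the sulfur-rich defence compounds of the cabbage family, the largest changes were in the genes that decide what is formed when they break down. ESP, the epithiospecifier protein that directs breakdown towards nitriles, had 13.32, 13.50 and 13.37 in rpl24b, against 7.38, 6.46 and 7.66 in WT. Its rise was 6.23 ± 0.26 (SE, adjusted p = 2.43e-06), and the WT arrays spread more than the mutant arrays. ESM1, which favours isothiocyanates, had 7.12, 7.29 and 7.36 in rpl24b, against 9.97, 10.03 and 10.11 in WT, and fell by 2.78 ± 0.10 (SE, adjusted p = 1.16e-06). The jacalin-related lectin gene JAL33, among the largest falls, had 5.11, 5.05 and 4.75 in rpl24b, against 9.03, 8.86 and 8.71 in WT (change -3.90, adjusted p = 6.3e-07). ESP and ESM1 were 2 of the 12 listed breakdown genes (16.7%, against 2.91% of probe sets called), and JAL33 was not on that list.

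Of 33 genes of glucosinolate synthesis 2 were called, or 6.06% beside 2.91% of all probe sets. MAM3, which lengthens the methionine side chain, had 8.45, 8.07 and 8.20 in rpl24b, against 5.30, 6.74 and 5.70 in WT, a rise of 2.33 ± 0.31 (SE, adjusted p = 0.00179). FMOGS-OX2, an oxygenase of the side chain, had 4.99, 4.54 and 4.90 in rpl24b, against 6.22, 6.22 and 6.11 in WT, a fall of 1.37 ± 0.13 (SE, adjusted p = 0.000266). The WT arrays differed among themselves in MAM3, with replicate 2 highest, but none reached a mutant array.

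On the list of 18 phosphate and sulfate genes 4 rose and 1 fell, 27.8% in all, against 2.91% of probe sets called. The 4 that rose are known from sulfate assimilation or sulfur deficiency, and the list was not tested by pathway. LSU1, a marker of low sulfur, had 6.25, 5.25 and 5.78 in rpl24b, against 4.27, 4.11 and 3.51 in WT, a rise of 1.8 ± 0.26 (SE, adjusted p = 0.00283). APR3 and APR1 encode APS reductases, which reduce activated sulfate. APR3 had 9.15, 8.70 and 9.06 in rpl24b, against 7.63, 7.16 and 7.42 in WT, a rise of 1.57 ± 0.16 (SE, adjusted p = 0.000396), and APR1 rose by 1.27 ± 0.16 (SE, adjusted p = 0.00117). SDI1, a gene induced by sulfur deficiency, had 4.91, 4.34 and 4.82 in rpl24b, against 3.60, 3.19 and 3.42 in WT, a rise of 1.29 ± 0.17 (SE, adjusted p = 0.00149). In each of them replicate 2 was the lowest or middle sample of its genotype, and the genotypes did not overlap.

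SULTR4;2, a vacuolar sulfate exporter outside the list and named after its value was seen, rose by 1.63 ± 0.14 (SE, adjusted p = 0.000195). The member that fell was MGD2, a galactolipid synthase of phosphate-starved plants, with 3.97, 3.86 and 3.79 in rpl24b, against 5.59, 5.21 and 4.84 in WT (change -1.34, adjusted p = 0.0014). Of 14 iron genes 1 rose and 2 fell, against 2.91% of probe sets called. FER4, a ferritin that stores iron, had 8.29, 7.81 and 8.22 in rpl24b, against 6.96, 6.31 and 6.55 in WT, a rise of 1.5 ± 0.18 (SE, adjusted p = 0.00118). FRO3, a ferric reductase of mitochondria, had 6.65, 7.33 and 6.50 in rpl24b, against 8.82, 8.96 and 8.72 in WT, and fell by 2.01 ± 0.20 (SE, adjusted p = 0.00038). BHLH101, a transcription factor of iron deficiency, had 6.36, 7.33 and 6.33 in rpl24b, against 7.77, 8.26 and 7.42 in WT, with a fall of 1.14 ± 0.29 (SE, adjusted p = 0.0288). This call ended with trend and robust variance (adjusted p = 0.0587) and in 4 of the 6 fits with an array left out.

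Of 26 phenylpropanoid genes 4 were called lower and none higher (15.4%, against 1.41% of probe sets called lower), and the other 22 were not called. Over the 5 listed probe sets that the platform list names, which hold none of the 4, the median was -0.16. PAL2, PAL3 and PAL4 encode phenylalanine ammonia-lyases, the entry into phenylpropanoid synthesis. PAL2 had 8.77, 8.80 and 8.38 in rpl24b, against 10.16, 9.85 and 9.85 in WT, and fell by 1.30 ± 0.14 (SE, adjusted p = 0.000679). PAL4 had 6.08, 5.88 and 5.79 in rpl24b, against 7.14, 7.2 and 7.0 in WT, and fell by 1.2 ± 0.11 (SE, adjusted p = 0.000243). PAL3 fell by 1.18 ± 0.15 (SE, adjusted p = 0.00123). F3H, flavanone 3-hydroxylase of flavonoid synthesis, had 5.68, 5.77 and 6.27 in rpl24b, against 7.18, 6.95 and 6.66 in WT, and fell by 1.02 ± 0.18 (SE, adjusted p = 0.00686). It dropped below 2-fold with 3 of the arrays left out. PAL2 lies near RPL24B on chromosome 3.

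Genes of the cuticle and of lipid-transfer proteins split. Of 25 listed, 2 rose and 3 fell, against 1.49% of probe sets called higher and 1.41% called lower. EARLI1 and AZI1 encode hybrid proline-rich proteins with a lipid-transfer domain, and AZI1 takes part in systemic immunity. EARLI1 had 8.77, 8.32 and 8.37 in rpl24b, against 5.50, 4.88 and 4.47 in WT, a rise of 3.54 ± 0.24 (SE, adjusted p = 4.36e-05). AZI1 had 10.94, 10.54 and 10.06 in rpl24b, against 7.40, 7.28 and 7.04 in WT, a rise of 3.27 ± 0.20 (SE, adjusted p = 2.79e-05). The neighbouring related genes AT4G12490 and AT4G12500 rose by 1.57 and 1.86, while ORP2B, on the other side of AZI1, fell by 1.46. This was a run of called genes on chromosome 4 in which the lipid-transfer-like members all rose.

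CER1, needed for the alkanes of cuticular wax, has 2 probe sets, and both fell. The first had 6.48, 7.22 and 7.1 in rpl24b, against 8.38, 8.83 and 8.96 in WT, a fall of 1.79 ± 0.21 (SE, adjusted p = 0.000991), and the other fell by 1.25 ± 0.30 (SE, adjusted p = 0.0229). DCR, an acyltransferase of cutin formation, had 4.74, 4.56 and 5.33 in rpl24b, against 6.31, 6.85 and 6.15 in WT, and fell by 1.56 ± 0.23 (SE, adjusted p = 0.00278). LTP6 fell by 1.07 ± 0.15 (SE, adjusted p = 0.00213), and by less than 2-fold without rpl24b replicate 1 or WT replicate 3. The other CER1 probe set lost its call without rpl24b replicate 1, WT replicate 2 or WT replicate 3.

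**Figure D5:**
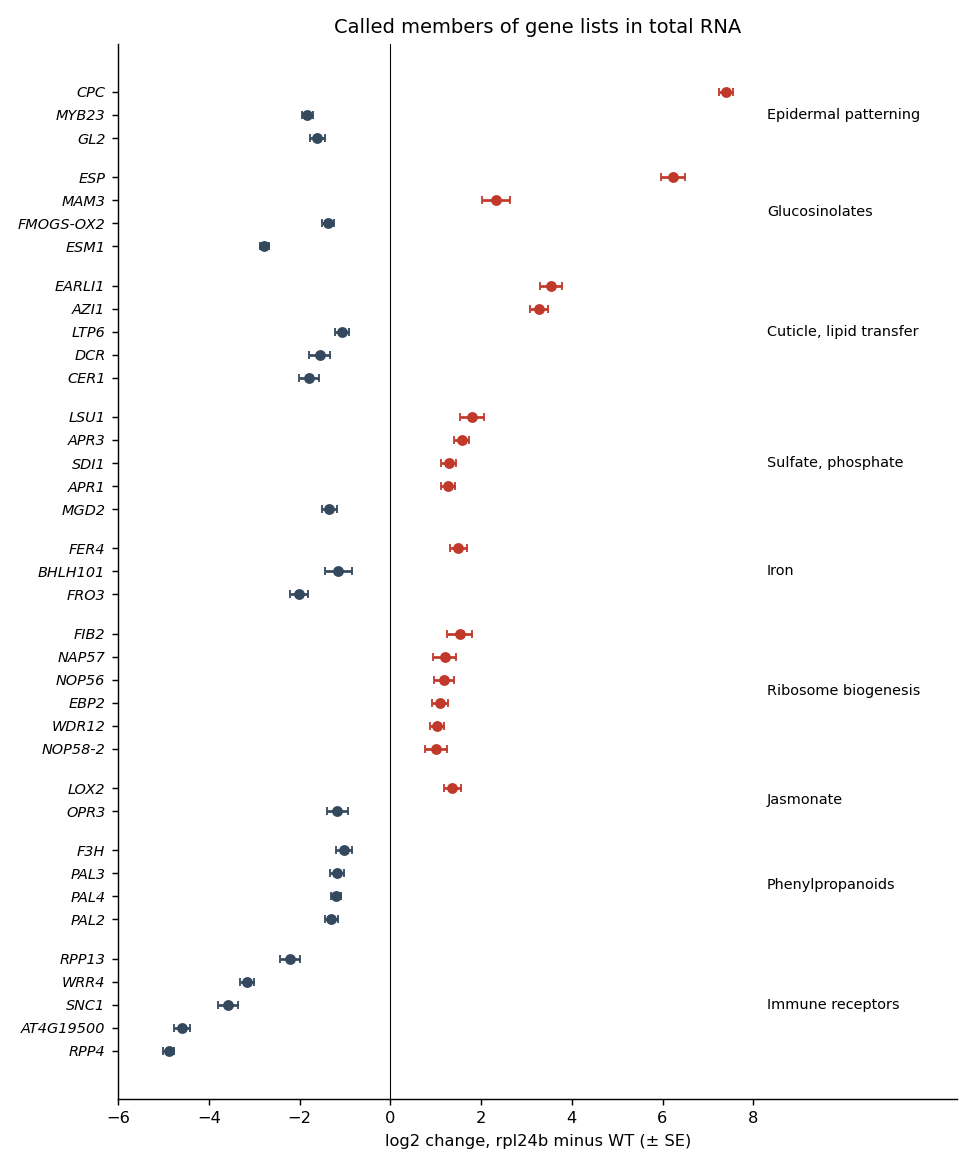
Log2 change in total RNA (rpl24b minus WT, x axis, points with SE bars) of called members of 9 groups of genes (rows). Members of ribosome biogenesis all lie right of 0, phenylpropanoid genes and immune receptors all lie left of 0, and the other groups hold both directions.

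The hormone and growth lists differed in their share of called genes. Of 29 jasmonate genes 1 rose and 3 fell, 13.8% in all, against 2.91% of probe sets called. The 3 falls came from 2 probe sets. LOX2, a plastid lipoxygenase of jasmonate synthesis, had 10.07, 9.97 and 10.26 in rpl24b, against 8.86, 8.26 and 9.07 in WT, a rise of 1.37 ± 0.19 (SE, adjusted p = 0.00236). OPR3, a later enzyme of the same route, had 5.97, 5.14 and 5.05 in rpl24b, against 6.57, 6.35 and 6.78 in WT, and fell by 1.17 ± 0.23 (SE, adjusted p = 0.0107). The probe set shared by the vegetative storage protein genes VSP1 and VSP2 (AT5G24780 and AT5G24770) fell by 1.13, a call that ended with 3 of the 6 arrays left out. None of 31 auxin, 13 cytokinin response, 19 leaf polarity and shoot meristem or 17 flowering and photoreceptor genes was called. These lists are too short for that to set them apart from the 2.91% of all probe sets.

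Of 32 cell cycle genes 1 was called, CYCB1;1, a mitotic cyclin (3.12%, near the 2.91% of all probe sets called). It had 6.20, 6.23 and 6.97 in rpl24b, against 5.01, 5.42 and 5.39 in WT, a rise of 1.19 ± 0.21 (SE, adjusted p = 0.00669) that was 0.94 without rpl24b replicate 3. Of 21 clock genes 2 were called (9.52%, against 2.91% of all probe sets). PRR3, a pseudo-response regulator, had 6.18, 6.51 and 6.33 in rpl24b, against 4.70, 3.60 and 4.28 in WT, a rise of 2.14 ± 0.24 (SE, adjusted p = 0.000782). A probe set shared by LUX and its homologue BOA (AT3G46640 and AT5G59570) rose by 1.00, and this call ended under centring, under quantile normalization and with 4 of the arrays left out. RAB18, a dehydrin responsive to abscisic acid, had 6.06, 6.22 and 6.29 in rpl24b, against 8.00, 7.97 and 7.67 in WT, and fell by 1.69 ± 0.12 (SE, adjusted p = 5.78e-05). It was the 1 called member of 17 cold and dehydration genes (5.88%, against 2.91% of all probe sets). Of 16 heat shock genes 1 was called (6.25%, against 2.91% of all probe sets). This was HSP90.2, a cytosolic chaperone that also stabilises NLR proteins, with 6.84, 6.84 and 7.32 in rpl24b, against 8.55, 8.56 and 8.82 in WT (change -1.64, adjusted p = 0.000245). DIN10 was the 1 called member of 8 sugar and dark response genes, beside 2.91% of all probe sets called. With 1 call, so short a list is not set apart from that share. The rise of DIN10 was 1.14 ± 0.29 (SE, adjusted p = 0.0286). It lost the call with trend and robust variance and with 4 of the arrays left out.

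Annotation words of all called probe sets, searched after the values were seen, gave further groups. Of 10 called class III peroxidases, enzymes of the cell wall and of defence, 9 were higher and 1 lower. Of 20 called transporters 16 were higher, with UMAMIT33, OCT6 and PMT6 rising by 2.19, 2.16 and 2.15, and 4 were lower. UMAMIT33 lost its call with trend and robust variance (adjusted p = 0.121) and without rpl24b replicate 1 (adjusted p = 0.0587). Of 15 protein kinases 4 were higher and 11 lower. All 5 called histone probe sets were lower, among them HTB11, a histone H2B, with 4.34, 4.54 and 4.85 in rpl24b, against 7.60, 8.02 and 7.72 in WT (change -3.20, adjusted p = 5.73e-06). Of the 5 histone probe sets 3 match several near-identical genes. Transposable element genes split evenly, with 5 higher and 5 lower, as did cytochromes P450, with 6 and 5. Lacking the number of probe sets per family on the array, these counts are no rates.

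Among the other large rises was AT2G15560, a putative endonuclease or glycosyl hydrolase, with 8.17, 8.36 and 7.98 in rpl24b, against 4.25, 4.39 and 4.14 in WT (change 3.91, adjusted p = 4.14e-07). AT1G52200, a PLAC8 family protein, had 9.06, 8.32 and 7.99 in rpl24b, against 5.67, 5.73 and 4.87 in WT (change 3.03, adjusted p = 0.000374). XTH19, a xyloglucan-modifying enzyme of the cell wall, rose by 2.16, and the plant defensin gene PDF1.4 by 2.33. The 20 largest rises among the brighter probe sets to which the platform list or the r-protein catalogue gives 1 gene ran from 1.9 to 3.91, and 7 of them encode proteins annotated as unknown. Outside that choice, and named after their values were seen, ACC2, an acetyl-CoA carboxylase, had 8.21, 7.90 and 8.84 in rpl24b, against 5.39, 5.11 and 5.18 in WT (change 3.09, adjusted p = 4.81e-05). PR4, a chitin-binding defence protein, had 9.58, 8.91 and 8.41 in rpl24b, against 6.51, 5.92 and 6.28 in WT (change 2.73, adjusted p = 0.00039).

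Among the falls AT3G47250, a protein of unknown function, had 2.59, 2.98 and 3.05 in rpl24b, against 8.81, 9.20 and 9.03 in WT (change -6.14, adjusted p = 9.71e-08). ECS1, a cell wall protein, had 4.29, 4.51 and 4.43 in rpl24b, against 10.36, 10.14 and 10.48 in WT (change -5.92, adjusted p = 2.88e-08). AT1G66100, a thionin, had 3.21, 3.14 and 3.41 in rpl24b, against 9.71, 8.42 and 9.25 in WT (change -5.88, adjusted p = 4.58e-06), and ZW9 fell by 5.36. After RPL24B, the 19 other largest falls among probe sets named in the same way ran from -2.59 to -6.14. Outside that choice CNGC12, a cyclic nucleotide-gated channel, had 3.77, 3.70 and 3.36 in rpl24b, against 8.36, 8.03 and 7.89 in WT, and fell by 4.48. LTP, a lipid transfer protein gene (AT2G15050), had 4.27, 4.37 and 4.37 in rpl24b, against 8.97, 8.97 and 8.85 in WT, and fell by 4.59 (adjusted p = 2.88e-08). The called genes were spread over all 5 nuclear chromosomes, from 1.78% of the protein-coding genes of chromosome 2 to 2.37% of those of chromosome 5.

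The same plants' polysomal and nonpolysomal RNA was measured on arrays of its own. The changes of RPL24B were -7.41 in PL and -5.93 in NP, those of CPC 6.86 and 8.03, those of ESP 5.44 and 5.08 and those of RPP4 -3.82 and -5.18. RPP0A differed more, with -0.95 in PL and -3.92 in NP beside -2.12 in total RNA, and AT2G15560 had 2.67 in PL and 5.88 in NP.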

How the data were processed

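Biotin-labelled cRNA of 6 total RNA samples, 3 rpl24b and 3 WT, was measured on Affymetrix ATH1 arrays. The deposited values are log2 signals that the authors computed by RMA (background correction, normalization and probe set summary) in the affy package of Bioconductor. The processing notes also name MAS5, and versions were not given in the sources used here. RMA pulls the signals of all arrays to a common distribution, so a shift of all mRNAs at once cannot be seen. The TC arrays have another median than the PL and NP arrays, as if normalized apart, and were tested alone. The deposited translation states were not used.

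All 22746 probe sets were fitted in R 4.3.3 using lmFit and eBayes of limma 3.58.1, 3 against 3, without a block. A call needed a change of 2-fold or more and p under 0.05 after Benjamini-Hochberg adjustment. On simulated data of this comparison (22746 probe sets) 94 of 100 added log2 changes of 1.5 and 97 of 100 of 2 were recovered, with 0 other calls. The labels say that replicates were grown at different times with both genotypes side by side, so replicate numbers pair the samples. Deviations from the group mean correlated at 0.14 to 0.39 for same-numbered samples and at -0.36 to -0.03 for others, which is partly arithmetic, and the replicate block was an alternative. The other alternatives were trend and robust variance, median centring, quantile normalization, a minimum signal, probe sets with 1 locus, all 18 arrays in 1 fit, no fold minimum and each array left out.

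The platform list gave 1 gene for 13513 probe sets, the r-protein catalogue for 96 more, 496 had several and 8641 were unnamed here. Called probe sets were also named from the study's gene lists, which gave all but 1 of them a locus, so called members of a gene list were counted over all its genes by locus, and medians over the probe sets named here. The study picked those lists with its own results known, and their values were not used. Gene symbols and gene order came from RefSeq (TAIR10.1). Gene lists, tests and members were chosen with earlier results of these data known. Named were RPL24 genes and CPC, the 20 largest rises and falls of probe sets with 1 gene in the platform list or r-protein catalogue, no overlap and a mean signal not under the median, and the largest changes in each list. Of these the text gives those that describe a group. Promoter motifs and protein sequences were not analysed here.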

Additional observations from a re-analysis of the deposited data

How the results depend on the processing

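The count of 661 called probe sets (340 higher, 321 lower in rpl24b) was between 629 and 717 with 1 array left out, with 305 to 378 higher and 299 to 356 lower, and 644 to 682 with the replicate block (682), trend and robust variance, median centring, quantile normalization or all 18 arrays. All 661 kept their call with the block, which ended no other call given here, and 480 kept it with each array left out in turn. Tests on fewer probe sets gave fewer calls, 407 (204 higher, 203 lower) with a mean signal not under the median and 376 (189 higher, 187 lower) with 1 locus, and 3711 probe sets differed with no fold minimum. Cytosolic r-protein probe sets that rose numbered 122, 137 with the replicate block, 109 to 133 under the other settings, and 45 to 99 with 1 array left out. For ribosome biogenesis the number was 12, 14 with the replicate block and 6 to 12 with 1 array left out. The cause of the lower counts was not tested beyond the smaller number of arrays. Of 93 called probe sets chosen by the naming rule 76 kept their call in every fit, 16 lost it with some array left out and 8 under another setting, and none changed direction. The number of arrays, and signals near background in 1 genotype, limit the size of the largest changes.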

Other observations

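In 13 called probe sets the signal was under the lower quartile of all 3 arrays of a genotype and above the median of all 3 arrays of the other. Beside CPC, SK6, RPP4, AT3G47250, AT1G66100 and AT1G23960 these included AT4G29200, annotated as a beta-galactosidase-related protein, with 7.38, 6.90 and 7.13 in rpl24b, against 3.31, 3.34 and 2.78 in WT. TIF3C2, a gene for a subunit of initiation factor 3, had 5.44, 5.50 and 6.10 in rpl24b, against 3.23, 3.14 and 3.21 in WT. Among those lower in rpl24b were DAR4, with 2.62, 2.67 and 2.65 in rpl24b, against 5.93, 5.77 and 5.74 in WT, and SEP4, a floral MADS-box gene, with 2.92, 3.42 and 3.28 in rpl24b, against 6.55, 6.47 and 6.08 in WT. These genes were chosen after their values were seen.

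Called genes were also counted in 547 windows of 50 neighbouring protein-coding genes. The mean was 1.06 called genes per window and the highest count was 6. The windows of 6 lay on chromosome 1 around ECS1, on chromosome 3 around RPP2C and on chromosome 4.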
